A study of Oryza sativa with 20 samples.

Results

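Roots of the rice cultivars Azucena and Moddai Karuppan were compared by RNA sequencing. The comparison took the 4 libraries labelled Azucena and the 4 labelled Moddai Karuppan, 8 of the 20 libraries of a series on aquaporin expression in roots of 5 cultivars. The labels give tissue (root), genotype and replicate for each library, and no treatment, growth medium or plant age is given in the sources used here. Azucena is an upland tropical japonica cultivar. The title of the series speaks of Indica II cultivars from Sri Lanka without listing them, and Moddai Karuppan was taken to be one of these. The remaining cultivars, Niyan Wee, Sarali and Bala, entered the estimate of the spread. Niyan Wee and Sarali also served to ask in which genes Moddai Karuppan differed from their mean. The labels do not say whether the 4 libraries of a cultivar came from separate plants, so the p-values measure only the spread between these libraries, which may be technical.

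Japonica and indica are the major subspecies of Asian cultivated rice, and upland and lowland cultivars differ in root thickness and depth. Root growth depends on division of cells in the meristem and on loosening of their walls as they elongate, to which expansins contribute. Water enters through aquaporins of the plasma membrane (PIP) and tonoplast (TIP), while ions enter through channels and carriers such as the potassium channel AKT1, and abscisic acid controls a set of protective genes under drought and salt.

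Total counts per library lay between 23528893 and 31996643, of which 10353221 to 21258155 fell outside ribosomal RNA genes. The ribosomal RNA share was 49.2% ± 9.33 in Azucena and 42.0% ± 7.75 in Moddai Karuppan (mean ± SD, n = 4 each). The difference of 7.20 percentage points did not pass a two-sided exact permutation test (p = 0.314, the smallest possible being 0.0286 with 70 arrangements). The defining root genes were present, the 8 measured root markers summing to 658 to 1106 CPM (the usual count rate of a gene in a library, with library sizes scaled by the TMM method) in Azucena libraries and 558 to 1338 CPM in Moddai Karuppan. Of the leaf markers only PSAG, a photosystem I subunit, and RBCS, the small subunit of Rubisco, were measured, and together they summed to 4.70 to 8.60 CPM against 6.16 to 9.25 CPM. Azucena replicate 3 stood apart from its group. Its correlation of log2 CPM with the other Azucena libraries averaged 0.896, against 0.935 to 0.938 for the other 3 and 0.958 to 0.964 within Moddai Karuppan. Where the fold change of a gene chosen by rule moved by over 1.5 times without this library, the value without it is given.

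Counts differed in a large part of the genes measured. All libraries were set against the build of Nipponbare, a japonica cultivar. For any called gene, a difference in read mapping and a difference in expression cannot be told apart in these counts. Of 21225 genes tested, 4251 (20.0%) passed at an adjusted p below 0.05 (edgeR quasi-likelihood test, Benjamini-Hochberg adjustment over all genes). They comprised 2284 genes higher in Azucena (10.8%) and 1967 lower (9.27%). At least a 2-fold difference was found for 1599 of the higher and 1135 of the lower genes. The 4 and 4 libraries did not overlap in 5790 genes (27.3%), of which 3831 (18.0% of all tested) were also called. The median log2 fold change of all genes tested was 0.02. Among called genes with at least 10 CPM in either cultivar 1010 were higher and 1048 lower in Azucena, whereas among those below 10 CPM the numbers were 1274 and 919. Without Azucena replicate 3 the call was made for 3700 genes, and 3346 of the 4251 kept both call and direction. The number was lowest, at 3068, without Moddai Karuppan replicate 1. The sample descriptions end in P1 for replicates 1 and 2 and in P2 for replicates 3 and 4, without saying what the mark stands for. Within the P1 libraries alone 2101 genes were called, and within the P2 libraries alone 1524.

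**Figure D1:**
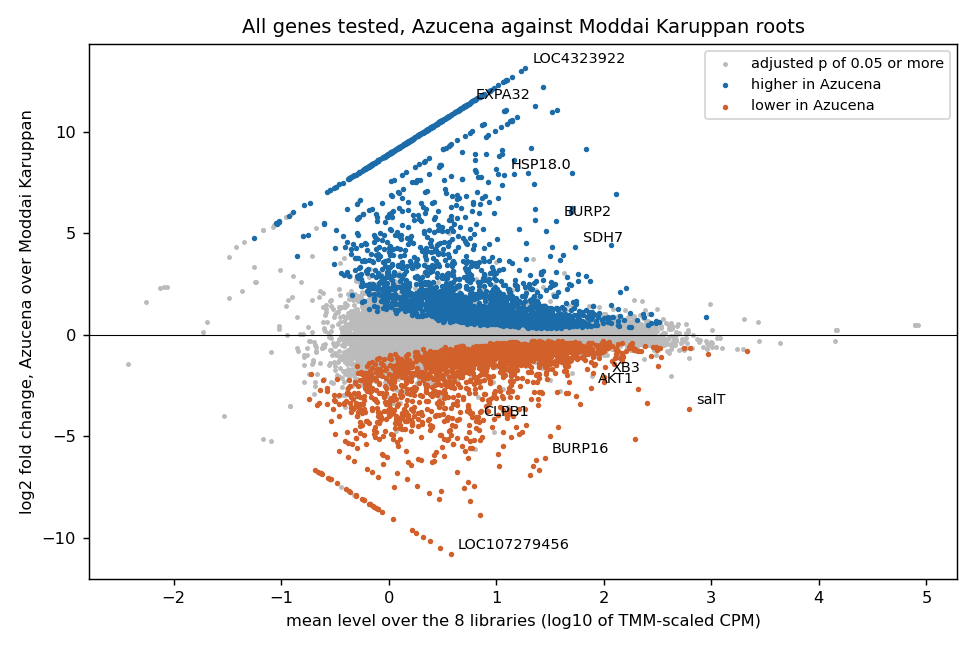
Mean level over the 8 libraries (horizontal, log10 of TMM-scaled CPM) against the log2 fold change of Azucena over Moddai Karuppan (vertical) for the 21225 genes tested, with genes called higher in Azucena in blue, lower in orange and the rest in grey. The straight diagonal lines of points at top left and bottom left are genes without a count in one of the cultivars, for which the fitted fold change depends on the prior count and is not a measured size.

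Among called genes with a name, libraries that did not overlap and at least 5 CPM in the higher cultivar, those with the highest fold changes included an expansin, a small heat shock protein, a subunit of a respiratory enzyme and a germin-like protein. EXPA32 (LOC_Os08g44780), an alpha expansin, measured 9.06, 13.6, 7.04 and 14.2 CPM in the 4 Azucena libraries and 0 in every Moddai Karuppan library. Against a floor of 3 counts over the 4 Moddai Karuppan libraries together it was at least 512-fold higher in Azucena (adjusted p = 3.57e-05). EXPA32 belongs to the genes near absent in Moddai Karuppan described below, with the limit given there. It averaged 0.0629 CPM in Niyan Wee, 0.0208 in Sarali and 0.114 in Bala. HSP18.0 (LOC_Os01g08880), a small heat shock protein, measured 14.9, 25.0, 26.0 and 27.5 CPM in Azucena against 0, 0.120, 0.0889 and 0.182. All 4 Azucena libraries were high and all 4 others near 0, with a log2 fold change of 7.89 ± 0.64 (SE), adjusted p = 6.39e-08. SDH7 (LOC_Os09g21470), a plant-specific subunit of succinate dehydrogenase, the mitochondrial enzyme shared by the citric acid cycle and the respiratory chain, was even within each cultivar. It measured 102, 106, 111 and 95.1 CPM in Azucena and 5.46, 5.37, 6.07 and 3.99 in Moddai Karuppan, a log2 fold change of 4.31 ± 0.24 (SE), adjusted p = 9.26e-10.

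BURP2 (LOC_Os05g12640), which encodes a plant-specific protein with a BURP domain, measured 53.3, 131, 3.31 and 94.5 CPM in Azucena and 1.29, 1.20, 1.71 and 1.63 in Moddai Karuppan. Replicates 1, 2 and 4 of Azucena were high, while replicate 3 lay close to the Moddai Karuppan libraries without overlapping them, and the fit gave a log2 fold change of 5.58 ± 0.83 (SE), adjusted p = 7.58e-05. GER3 (LOC_Os08g08960), a germin-like protein of the cluster of such genes on chromosome 8 that is known for a role in disease resistance, was likewise lowest in Azucena replicate 3, at 12.6, 22.4, 3.97 and 19.1 CPM against 1.56, 0.441, 0.133 and 0.817. Its log2 fold change was 4.29 ± 0.68 (adjusted p = 0.000146), or 4.98 without Moddai Karuppan replicate 1. NAS3 (LOC_Os07g48980), a nicotianamine synthase that makes the metal chelator from which rice builds its phytosiderophores, measured 15.8, 6.33, 24.3 and 7.51 CPM against 2.02, 2.77, 1.02 and 1.09, a log2 fold change of 2.98 ± 0.63 (SE), adjusted p = 0.00205. The remaining genes of the highest 8 within these limits were CBP1 (LOC_Os12g15470), at 11.9 ± 2.77 against 1.14 ± 0.335 CPM, and GRXS1 (LOC_Os01g07950), a glutaredoxin, at 16.7 ± 2.06 against 1.99 ± 0.912 CPM (mean ± SD, n = 4 each). Their log2 fold changes were 3.38 and 3.08 (adjusted p = 1.85e-07 and 4.84e-05).

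Within the same limits, genes with the lowest fold changes included a salt-induced lectin and a potassium channel. BURP16 (LOC_Os10g26940), of the same domain family as BURP2, went the opposite way, with 0.923, 0.0600, 2.05 and 0.242 CPM in Azucena and 84.1, 36.7, 63.4 and 38.1 in Moddai Karuppan, a log2 fold change of −6.07 ± 0.65 (SE), adjusted p = 1.64e-06. Without Azucena replicate 3 the log2 value was −7.21. CLPB1 (LOC_Os05g44340), the cytosolic disaggregase also called HSP101, measured 0.484, 0.0300, 1.72 and 0.277 CPM against 15.0, 10.1, 10.6 and 13.6. The groups were far apart, with a log2 fold change of −4.27 ± 0.57 (SE), adjusted p = 2.14e-05, and −5.63 without Azucena replicate 3. MADS56 (LOC_Os10g39130), a MADS-box factor known from flowering time control, measured 0.0879, 0, 3.70 and 0.0692 CPM against 21.8, 24.3, 14.2 and 11.5, a log2 fold change of −4.16 ± 0.92 (SE), adjusted p = 0.00294. It was near 0 in 3 Azucena libraries and only replicate 3 held a clear level, and without that library the log2 value was −8.44.

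The gene salT (LOC_Os01g24710), a mannose-binding lectin induced by salt, measured 152, 128, 8.67 and 74.2 CPM in Azucena and 1542, 748, 1389.8 and 911 in Moddai Karuppan, a log2 fold change of −3.66 ± 0.60 (SE), adjusted p = 0.000193. Each Moddai Karuppan library was above every Azucena library, and Azucena replicate 3 was the lowest of the 8. AKT1 (LOC_Os01g45990), the inward potassium channel of roots, measured 20.1, 35.2, 7.46 and 21.8 CPM in Azucena and 119.6, 122, 185 and 92.7 in Moddai Karuppan, a log2 fold change of −2.62 ± 0.41 (SE), adjusted p = 0.000117. Here too the groups were separate and Azucena replicate 3 was lowest. BGLU30 (LOC_Os09g31430), a beta-glucosidase, stood at 2.78 ± 1.80 against 19.0 ± 8.49 CPM and CSLE6 (LOC_Os09g30130), a cellulose synthase-like protein, at 3.57 ± 1.47 against 24.3 ± 5.83 CPM (mean ± SD, n = 4 each). Their log2 fold changes were −2.78 and −2.77 (adjusted p = 0.00131 and 0.000148). RAB21 (LOC_Os11g26790), a dehydrin induced by abscisic acid, rested on a single library, with 2.45, 1.36, 1.18 and 24.7 CPM in Moddai Karuppan against 0.396, 0.360, 0 and 0.623. Its call (adjusted p = 0.0257) was lost without Moddai Karuppan replicate 4 (adjusted p = 0.214) and also without Azucena replicates 1, 2 or 3.

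**Figure D2:**
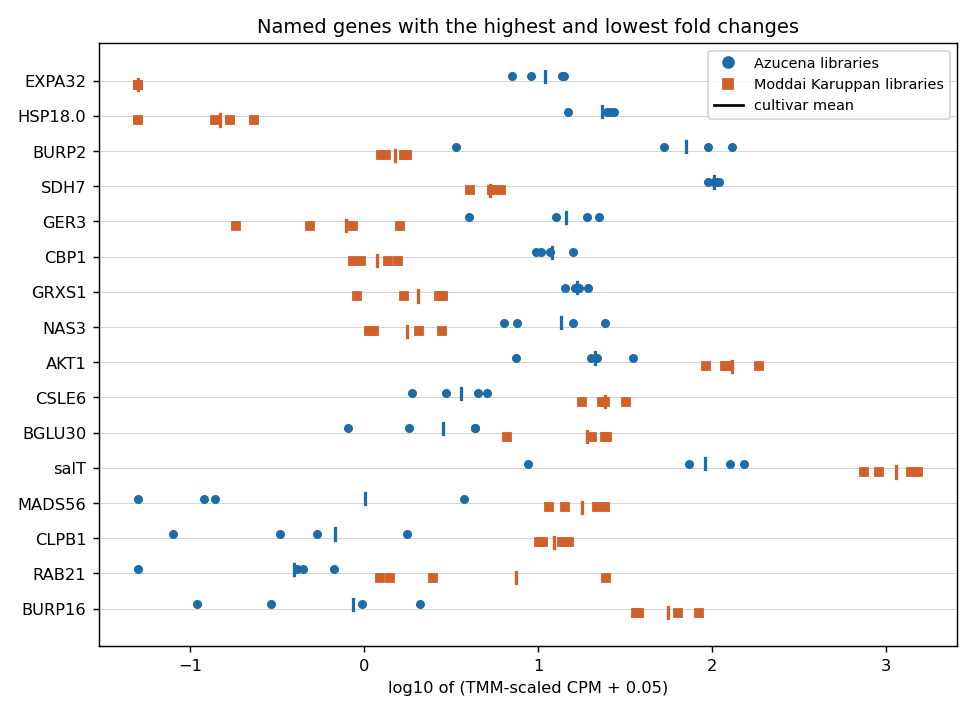
Level in each library (horizontal, log10 of TMM-scaled CPM plus 0.05) of the 8 highest and the 8 lowest fold changes among called named genes with at least 5 CPM in the higher cultivar and no overlap of libraries, Azucena libraries as blue circles, Moddai Karuppan libraries as orange squares and cultivar means as short vertical lines. The cultivars do not overlap in any of the 16 genes, as their choice required, and single Azucena libraries trail towards the other cultivar in BURP2 and MADS56.

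Genes with at least 10 CPM in both cultivars and the smallest p-values had smaller differences. Their choice by p favours genes that vary little between libraries. SDH3-2 (LOC_Os07g33680), another subunit of succinate dehydrogenase, measured 42.2, 49.0, 51.5 and 48.1 CPM in Azucena against 10.1, 11.5, 10.4 and 9.53, a log2 fold change of 2.20 ± 0.15 (SE), adjusted p = 6.59e-09. The remaining genes higher in Azucena were gcs, which makes the glutathione precursor gamma-glutamylcysteine, at 64.1 ± 6.64 against 37.0 ± 2.29 CPM, and SGS3, a partner of RNA-dependent RNA polymerase in gene silencing, at 40.5 ± 6.53 against 20.1 ± 1.92 CPM. PAE1, a subunit of the 20S proteasome core, stood at 85.2 ± 14.5 against 39.4 ± 8.84 CPM, and APG4A, a protease that processes the autophagy protein ATG8, at 17.9 ± 1.83 against 10.4 ± 0.937 CPM. Their log2 fold changes lay between 0.78 (APG4A) and 1.11 (PAE1), and their adjusted p-values between 0.000195 (gcs) and 0.000432 (APG4A).

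XB3 (LOC_Os05g02130), a ubiquitin ligase that binds the immune receptor XA21, had the smallest p among the genes of this kind that were lower in Azucena. It measured 47.3, 35.1, 35.3 and 34.9 CPM in Azucena and 151, 136, 184 and 179 in Moddai Karuppan, a log2 fold change of −2.09 ± 0.15 (SE), adjusted p = 1.86e-08. BADH2 (LOC_Os08g32870), the betaine aldehyde dehydrogenase whose loss gives fragrant grain, measured 15.5, 14.8, 28.3 and 16.6 CPM against 72.4, 70.6, 74.6 and 74.4, a log2 fold change of −1.96 ± 0.18 (SE), adjusted p = 2.46e-07. Moddai Karuppan libraries hardly varied in BADH2, and Azucena replicate 3 was the nearest to them. IAA3 (LOC_Os01g13030), a repressor of auxin responses, stood at 34.3 ± 10.4 against 124 ± 7.19 CPM with a log2 fold change of −1.86 ± 0.19 (SE), adjusted p = 9.4e-07. C3H27, a zinc finger protein, and RLA1, an AP2-type factor of brassinosteroid signalling, stood at 15.7 ± 4.57 against 50.1 ± 4.03 CPM and 12.5 ± 1.35 against 45.1 ± 3.35 CPM (log2 fold changes −1.68 and −1.85, adjusted p = 1.35e-06 and 3.72e-06).

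A set of genes had practically no counts in one of the cultivars. Near absent was taken as under 0.1 CPM in all 4 libraries of a cultivar where the other cultivar averaged 5 CPM or more. By this measure 136 genes were near absent in Moddai Karuppan, of which 94 had no count in any of its 4 libraries, and 6 were near absent in Azucena. Without Azucena replicate 3 the second number was 35. In 29 of these 35 genes that library held 0.1 CPM or more, with a median over the 35 of 8.31% of the Moddai Karuppan mean. Long non-coding RNAs made up 42 of the 136 genes (30.9%), against 4.91% of all genes tested, and 81 were protein coding. A locus number, from which the chromosome was read, was given for 96 of the 136. Chromosome 11 held 17 of these 96, or 1.65% of its genes tested. It also had the highest share of called genes, 26.9% against 15.5% on chromosome 3. Of the 136, 118 were near absent in Sarali too, 105 in Niyan Wee and 45 in Bala, and 34 in all 3. Bala libraries held only 3813615 to 10791187 counts outside ribosomal RNA genes, so very few reads in 1 library can exceed 0.1 CPM there. The numbers for Bala and for all 3 depend on this, and a gene not near absent in Bala need not be clearly expressed there. The build is that of Nipponbare, a japonica cultivar. Loss of a gene, sequence divergence that keeps reads from mapping to it, and low expression cannot be told apart in these counts.

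The 2 genes without a name and with the highest fitted fold change were LOC_Os01g52810 and LOC_Os02g27594, both annotated as long non-coding RNAs. The fitted fold of genes without a count in a cultivar depends on the prior count, so this order is no ranking of measured size. LOC_Os11g17290 averaged 54.2 CPM in Azucena against 0.00757 in Moddai Karuppan, and LOC_Os09g14100 0.0283 CPM against 14.2. LOC_Os01g52810 measured 35.0, 43.6, 28.3 and 42.2 CPM in Azucena and LOC_Os02g27594 31.1, 30.3, 38.5 and 35.1 CPM, and neither had a count in Moddai Karuppan. On the floor of 3 counts they were at least 1742-fold and 1577-fold higher (adjusted p = 1.22e-06 and 0.00349). In the opposite direction, LOC_Os11g28670 measured 14.3, 13.4, 0.667 and 1.82 CPM in Moddai Karuppan and LOC_Os07g04310 3.85, 0.481, 8.76 and 11.1 CPM, and neither had a count in Azucena. They were at least 297-fold and 239-fold lower in Azucena (adjusted p = 0.0104 and 0.00156), with Moddai Karuppan levels that differed widely between libraries. Neighbours were taken in locus order among genes tested, so only the 96 of the 136 genes with a locus number could fall in a run. They were near absent together in 7 runs holding 15 genes. The longest run had 3 genes, LOC_Os02g06754 to LOC_Os02g06770 on chromosome 2, with means of 5.84 to 8.59 CPM in Azucena and no count in Moddai Karuppan, Niyan Wee or Sarali. In Azucena the only run was the pair LOC_Os09g14019 and LOC_Os09g14100 on chromosome 9.

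Groups of genes were described by how many measured members were called, beside the 10.8% of all genes higher and the 9.27% lower in Azucena. These counts describe the lists and test no pathway. Lists were matched on gene names, some with loci added by number, and only 2361 of 21237 genes had a name. Family members without a name were left out, so the numbers measured are not whole families. In bulk samples such as these, a different share of cells of a type and a different RNA level per cell cannot be told apart. Expansins stood on the higher side. Of 31 measured expansins 11 were higher in Azucena and 0 lower, with a median log2 fold change of 0.85. At an unadjusted p below 0.05 there were 19 expansins, against 33.1% of all genes tested. By family, 6 of 11 beta expansins (EXPB) and 4 of 16 alpha expansins (EXPA) were called higher. EXPB4 measured 28.9, 32.4, 15.9 and 41.2 CPM in Azucena against 9.55, 11.8, 13.5 and 13.6, EXPA11 13.9, 10.2, 25.2 and 12.8 against 1.96, 5.09, 2.04 and 5.48, and EXPB11 7.70, 10.3, 14.6 and 8.44 against 3.82, 2.33, 2.98 and 2.42. No library of one cultivar overlapped the other in these 3 genes. Their log2 fold changes were 1.29 ± 0.25, 2.10 ± 0.46 and 1.83 ± 0.41 (SE; adjusted p = 0.00105, 0.00267 and 0.00296). Of the 11 called, 5 kept the call without any single library. The count was 6 without Azucena replicate 4, 7 without Moddai Karuppan replicate 1 and 12 without Azucena replicate 3. It was 8 within the P1 libraries and 1 within the P2 libraries. A fit on the 8 libraries of the pair alone called 8 higher and 1 lower. Counts of single expansins are uncertain where reads are shared between close copies.

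Wall polysaccharide synthesis was divided. Of 32 cellulose synthase and cellulose synthase-like genes 5 were higher and 5 lower in Azucena. The higher count was 3 without Azucena replicate 2 or 4 or Moddai Karuppan replicate 1 or 2, and the lower count was 8 without Azucena replicate 2 and 3 without Moddai Karuppan replicate 1. CSLA1, of the family that makes mannan, stood at 60.0 ± 5.92 against 33.9 ± 6.83 CPM (log2 fold change 0.83, adjusted p = 0.000469), and CSLD1, known from root hair growth, at 2.02 ± 0.465 against 0.233 ± 0.167 CPM (log2 fold change 3.09, adjusted p = 0.00845). CSLE2 was higher as well (log2 fold change 0.82, adjusted p = 0.00546), although its libraries overlapped, Azucena replicate 3 lying at 16.8 CPM and Moddai Karuppan replicate 2 at 17.5. Lower in Azucena were CSLE6 (above), CESA3, a subunit of the cellulose synthase of primary walls, at 638 ± 233 against 1212 ± 174 CPM (log2 fold change −0.93, adjusted p = 0.0141), and CSLH1, of a family that makes mixed-linkage glucan, at 40.6 ± 17.4 against 88.3 ± 9.79 CPM (log2 fold change −1.12, adjusted p = 0.0105).

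Of 49 cell division genes 16 were higher in Azucena, 5 lower and 28 not called, with a median log2 fold change of 0.43. The list was drawn by name and took in T-type cyclins and histone H2B genes, so not every member is specific to division. Among the higher genes were CycT1;2, H2B.2, H2B.4, H2B.9 and H2B.11, and among the lower H2B.7 and H2B.10. The higher count stayed between 13 and 17 when any single library was left out, while the lower count was 3 without Azucena replicate 1, 2 or 4 or Moddai Karuppan replicate 4. The P1 libraries alone gave 7 higher and 2 lower and the P2 libraries alone 2 and 0. The D-type cyclin CYCD5-3 (LOC_Os03g10650) had the smallest p, at 14.4, 12.9, 12.2 and 15.0 CPM against 2.50, 4.13, 4.91 and 6.36, a log2 fold change of 1.60 ± 0.27 (SE), adjusted p = 0.000244. PCNA, the sliding clamp of DNA replication, stood at 47.8 ± 7.86 against 26.4 ± 4.58 CPM (log2 fold change 0.85, adjusted p = 0.007). Subunits of the MCM replicative helicase were higher too, MCM2 at 17.8 ± 2.53 against 9.28 ± 3.35 CPM, MCM5 at 22.7 ± 3.99 against 13.3 ± 2.23 CPM and MCM6 at 16.3 ± 3.22 against 8.74 ± 2.09 CPM. Their log2 fold changes were 0.94, 0.77 and 0.90 (adjusted p = 0.00635, 0.00697 and 0.00385). For mitosis, the kinase CDKB2-1 stood at 27.9 ± 4.51 against 15.1 ± 2.52 CPM (log2 fold change 0.89, adjusted p = 0.00408) and cyclin CYCB1-1 at 25.0 ± 4.14 against 14.2 ± 4.07 CPM (log2 fold change 0.81, adjusted p = 0.00831). Histone H2B genes, whose near-identical copies make single values uncertain, went both ways, H2B.2 and H2B.11 being higher (0.98 and 1.07, adjusted p = 0.000734 and 0.00118) and H2B.10 lower (−1.08, adjusted p = 0.00158). The inhibitor of cyclin-dependent kinases KRP3 was lower (log2 fold change −1.12, adjusted p = 0.0117), a call lost without Moddai Karuppan replicate 1 (adjusted p = 0.0543). Among cyclins, CYCA1-4 was lower too (log2 fold change −0.66, adjusted p = 0.00546), a call kept without any single library. CYCD2-2 was also lower (log2 fold change −0.77, adjusted p = 0.0398), a call lost without 5 of the 8 libraries in turn.  Of 31 genes named as kinesins (KIN), the motors that move along microtubules, 8 were higher and 1 lower.

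In respiration, SDH7 and SDH3-2 were the 2 higher genes of 12 measured (16.7% called, below the 20.0% of all genes). None was lower, or 1 with the replicate number as a block, and the median of the 12 was −0.01. The other succinate dehydrogenase subunits did not pass, SDH4 with a log2 fold change of 0.04, SDH5 with −0.15 and SDH6 with 0.10 (adjusted p = 0.914, 0.652 and 0.767). Both calls were also made within the P1 and within the P2 libraries alone. Heat shock genes numbered 37, of which HSP18.0 was higher and 5 were lower (16.2% called, below the 20.0% of all genes). The lower count fell to 2 without Azucena replicate 3 and to 3 without Azucena replicate 4 or Moddai Karuppan replicate 1, 2 or 4. Besides CLPB1, the factor HSFC2B kept its call without any single library, at 1.74 ± 0.729 against 7.17 ± 2.79 CPM (log2 fold change −2.03, adjusted p = 0.000154). CLPB-C, the plastid counterpart of CLPB1, stood at 15.4 ± 1.66 against 20.8 ± 0.522 CPM (log2 fold change −0.43, adjusted p = 0.0206), a call lost without Azucena replicate 3 (adjusted p = 0.0703). Of 29 ribosomal protein genes 0 were called (edgeR), although 12 had an unadjusted p below 0.05 and their median log2 fold change was 0.48. Higher calls numbered 6 in the edgeR fit on the 8 libraries of the pair alone, 3 with DESeq2, and 1 with edgeR without Azucena replicate 2 or Moddai Karuppan replicate 4. None of the 23 ribosomal RNA genes was called.

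**Figure D3:**
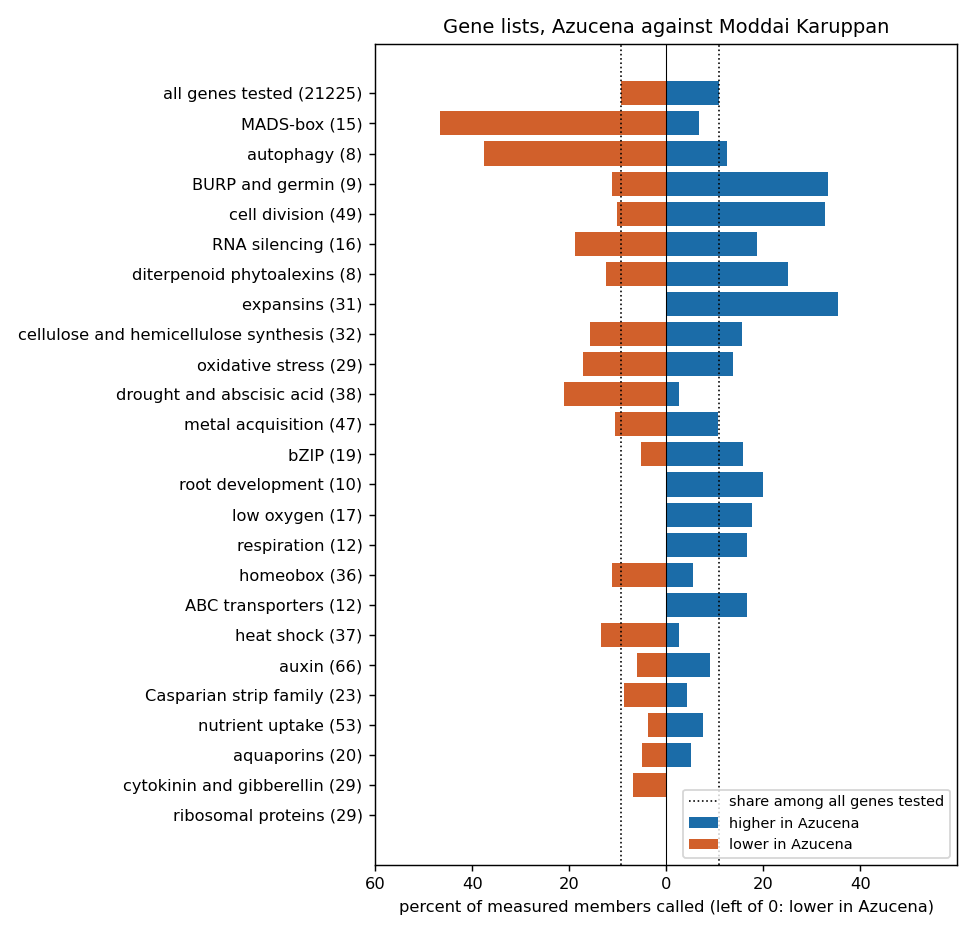
Percent of the measured members of each gene list called higher in Azucena (blue, right of 0) and lower (orange, left of 0), with the number measured in brackets and dotted lines at the shares among all 21225 genes tested. Expansins and cell division extend to the right and MADS-box genes to the left, while the 29 ribosomal protein genes have no bar. Several lists hold fewer than 20 genes.

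MADS-box transcription factors had the highest share of called members among the lists of at least 10 genes. Since the lists were chosen with earlier results of these data known, this rank describes them and tests nothing. Of 15 measured, 1 was higher and 7 were lower in Azucena (53.3% called, median −0.52), and 5 to 7 were lower when any single library was left out. The P1 libraries alone gave 4 lower and the P2 libraries alone 2. MADS57 (LOC_Os02g49840), known from tiller outgrowth, measured 5.01, 7.11, 5.30 and 5.92 CPM against 21.5, 25.1, 23.3 and 16.2, a log2 fold change of −1.88 ± 0.32 (SE), adjusted p = 0.000282. MADS16 (LOC_Os06g49840), known as a floral organ identity gene, measured 13.7, 22.4, 10.9 and 16.6 CPM against 126, 72.0, 56.6 and 61.0, a log2 fold change of −2.31 ± 0.47 (SE), adjusted p = 0.00153. Every Moddai Karuppan library lay above every Azucena library in both. MADS23 (LOC_Os08g33488) was the exception, with 6.82, 5.79, 6.26 and 5.74 CPM against 1.91, 0.842, 2.02 and 2.39, a log2 fold change of 1.77 ± 0.40 (SE), adjusted p = 0.00312. MADS55 and MADS2 were lower as well (−1.17 and −1.19, adjusted p = 0.00694 and 0.00535).

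Of 19 bZIP genes 3 were higher and 1 lower (21.1% called, near the 20.0% of all genes). TGAL5, of the TGA group, stood at 13.3 ± 2.54 against 2.04 ± 0.597 CPM (log2 fold change 2.70, adjusted p = 0.00319) and BZIP06 at 7.42 ± 1.35 against 2.59 ± 1.41 CPM (log2 fold change 1.53, adjusted p = 0.0153), both kept without any single library, whereas the calls of BZIP19 and ABF2 (adjusted p = 0.0251 and 0.0458) were each lost without 4 or more of the 8 libraries in turn. Of 7 NAC genes NAC2 was lower, at 23.3 ± 8.76 against 58.6 ± 6.72 CPM (log2 fold change −1.33, adjusted p = 0.00251), and NAC5 higher (log2 fold change 1.16, adjusted p = 0.0234), the latter lost without Azucena replicate 3 (adjusted p = 0.146) or without Moddai Karuppan replicate 1, 3 or 4. None of the 4 WRKY genes measured under that name was called (edgeR), and none had an unadjusted p below 0.05. Of 36 homeobox genes 2 were higher and 4 lower (16.7% called, below the 20.0% of all genes). Each of these 6 calls was lost without at least 3 of the 8 libraries in turn. With the replicate number as a block 1 was higher and 5 were lower. They included Hox13 (log2 fold change −0.62, adjusted p = 0.0209), HOX12 (log2 fold change 1.16, adjusted p = 0.0263), OSH71 (log2 fold change −0.81, adjusted p = 0.0313) and WOX6 (log2 fold change 1.54, adjusted p = 0.0463, with the replicate number as a block 0.0525).

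Hormone genes were divided. Of 66 auxin genes 6 were higher and 4 lower (15.2% called, below the 20.0% of all genes). Besides IAA3, 2 further Aux/IAA repressors kept their calls, IAA7 at 12.8 ± 2.85 against 4.81 ± 0.922 CPM (log2 fold change 1.41, adjusted p = 0.000378) and IAA15 at 46.6 ± 8.85 against 25.7 ± 4.99 CPM (log2 fold change 0.86, adjusted p = 0.0062). PIN2, the auxin efflux carrier of the root tip, measured 14.9, 13.4, 33.5 and 25.1 CPM against 2.42, 7.82, 3.49 and 8.35, a log2 fold change of 1.98 ± 0.50 (SE), adjusted p = 0.00826. All 4 Azucena libraries were above all 4 Moddai Karuppan libraries. DESeq2 called 10 higher and 8 lower. Without Moddai Karuppan replicate 1 the auxin counts were 4 higher and 1 lower, with 10 higher without Moddai Karuppan replicate 2 and 2 lower without Azucena replicate 4. With the replicate number as a block 9 were higher and 7 lower. Of 29 cytokinin and gibberellin genes 0 were higher and 2 lower (6.9% called), both response regulators of cytokinin signalling. ORR2 stood at 8.67 ± 0.943 against 13.8 ± 0.934 CPM (log2 fold change −0.67, adjusted p = 0.0116). ORR5 (LOC_Os06g43910) measured 0, 0, 0.331 and 0 CPM in Azucena and 2.45, 2.41, 1.98 and 2.03 in Moddai Karuppan (adjusted p = 0.00597), with Azucena replicate 3 as the only library of its group above 0. Without that library the adjusted p was 0.000693, and no fold is given since the group was then at 0. The fit on the 8 libraries of the pair alone called 5 of the 29 lower.

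RNA silencing genes were called in 6 of 16 cases, 3 in each direction. DCL2A (LOC_Os03g38740), a Dicer-like protein that cuts double-stranded RNA, measured 18.0, 22.4, 16.7 and 18.4 CPM against 52.7, 60.3, 52.8 and 46.7, a log2 fold change of −1.49 ± 0.18 (SE), adjusted p = 8.84e-06. The RNA-dependent RNA polymerases differed in sign, RDR4 being higher at 4.44 ± 1.40 against 1.42 ± 0.577 CPM (log2 fold change 1.63, adjusted p = 0.00312) and SHL2 lower at 10.1 ± 0.565 against 17.1 ± 4.13 CPM (log2 fold change −0.75, adjusted p = 0.00565). AGO4B, an Argonaute of the RNA-directed DNA methylation pathway, was higher at 57.4 ± 8.87 against 37.7 ± 3.01 CPM (log2 fold change 0.61, adjusted p = 0.0135).

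Of 20 aquaporins measured, the subject of the series, 1 was higher and 1 lower in Azucena (edgeR, all 20 libraries). That is 10% called, below the 20.0% of all genes. An unadjusted p below 0.05 was found for 4 of the 20, against 33.1% of all genes tested. DESeq2 called 2 higher and 2 lower, and edgeR on the 8 libraries of the pair alone 1 higher and 3 lower. Neither direction had a call without Azucena replicate 4 or without Moddai Karuppan replicate 4. TIP1-2 (LOC_Os01g74450), a tonoplast channel, measured 14.2, 6.60, 14.6 and 7.41 CPM in Azucena and 20.1, 38.9, 17.5 and 34.7 in Moddai Karuppan, a log2 fold change of −1.38 ± 0.42 (SE), adjusted p = 0.0243. The groups did not overlap, but the call was lost without Azucena replicate 2 or 4 or Moddai Karuppan replicate 2 or 4 (adjusted p up to 0.0755). TIP4-1 (LOC_Os05g14240), also of the tonoplast, measured 23.5, 22.1, 47.7 and 30.5 CPM against 22.7, 20.5, 17.4 and 18.2, a log2 fold change of 0.65 ± 0.22 (SE), adjusted p = 0.0398. Its groups overlapped, Azucena replicate 3 was well above the rest, and without that library the adjusted p was 0.201. The call was also lost without Azucena replicate 4 or Moddai Karuppan replicate 2, 3 or 4, and in the fit on the 8 libraries alone (0.0902).

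In 4 channels the libraries did not overlap but edgeR's test on all 20 libraries was not passed. These 4 and TIP1-2, of 20 aquaporins, stand beside 27.3% of all genes tested whose libraries did not overlap. PIP2-3 (LOC_Os04g44060), of the plasma membrane, measured 135, 193, 209.9 and 151 CPM against 63.1, 93.0, 67.7 and 64.0, a log2 fold change of 1.26 ± 0.48 (adjusted p = 0.0698). NIP1-2 (LOC_Os01g10600) measured 1.41, 1.95, 1.69 and 2.35 CPM against 4.90, 2.73, 4.62 and 3.93 (−1.13 ± 0.40, adjusted p = 0.0514). TIP2-2 (LOC_Os06g22960) measured 207, 562, 97.5 and 659 CPM against 913, 759, 977 and 753 (−1.16 ± 0.56, adjusted p = 0.158). PIP2-3 and NIP1-2 were called by DESeq2 (adjusted p = 0.032 and 0.0235) and by edgeR on the 8 libraries alone (0.00182 and 0.0153). The Azucena values of TIP2-2 spread over a wide range, with replicate 3 lowest, whereas those of Moddai Karuppan were close together. TIP1-1 (LOC_Os03g05290) had an equally wide Azucena range, which here overlapped Moddai Karuppan, 307, 597, 106 and 668 CPM against 790.1, 623, 652 and 706 (−0.72 ± 0.57, adjusted p = 0.393). PIP2-2 (LOC_Os02g41860) was the fourth channel whose groups did not overlap, at 64.3 ± 7.50 against 101 ± 25.9 CPM (log2 fold change −0.65, adjusted p = 0.271, or 0.0397 in edgeR on the 8 libraries alone).

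The remaining 13 aquaporins had overlapping libraries and did not pass edgeR's test on all 20 libraries. For the plasma membrane channels the log2 fold changes were 0.21 ± 0.30 for PIP1-1, −0.35 ± 0.24 for PIP1-2, −0.41 ± 0.67 for PIP1-3, −0.19 ± 0.33 for PIP2-1, −0.13 ± 0.37 for PIP2-4, −0.72 ± 0.65 for PIP2-5 and 0.32 ± 0.40 for PIP2-6 (SE). Without Azucena replicate 3 the value of PIP1-3 was −1.29 (adjusted p = 0.206). The tonoplast channel TIP2-1 gave −0.32 ± 0.56, and SIP1-1 and SIP2-1, small basic channels, gave 0.22 ± 0.14 and 0.05 ± 0.23. NIP2-1, the silicon influx channel Lsi1, gave 0.95 ± 0.48, with Azucena replicate 3 at 385 CPM and the other Azucena libraries between 79.0 and 148, and 0.24 without that library (adjusted p = 0.759). NIP2-2, also called Lsi6, and NIP3-1 gave −0.40 ± 0.75 and −0.03 ± 0.27. Adjusted p-values of these 13 lay between 0.18 (NIP2-1) and 0.949 (NIP3-1).

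**Figure D4:**
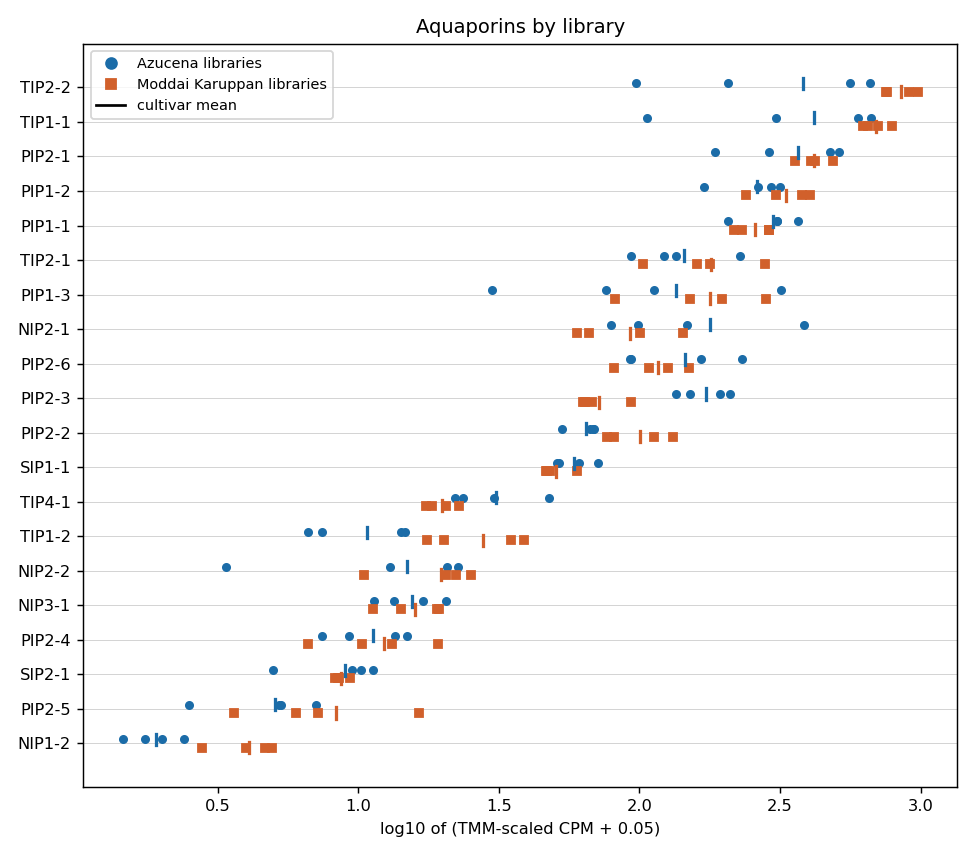
Level of each measured aquaporin in each library (horizontal, log10 of TMM-scaled CPM plus 0.05), Azucena as blue circles, Moddai Karuppan as orange squares and cultivar means as short vertical lines. The cultivars separate in TIP1-2, PIP2-2, PIP2-3, NIP1-2 and TIP2-2 and overlap in the rest, and TIP1-2 and TIP4-1 were the called channels in the edgeR fit on all 20 libraries.

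Ion transporters were called in both directions. Of 53 nutrient uptake genes 4 were higher and 2 lower in Azucena (11.3% called, below the 20.0% of all genes). The lower ones were AKT1 and HAK23, a potassium transporter that stood at 16.1 ± 4.70 against 32.8 ± 9.52 CPM (log2 fold change −1.02, adjusted p = 0.00338). HAK18, of the same transporter family, was higher, measuring 28.5, 27.1, 12.1 and 22.1 CPM against 5.08, 6.42, 11.0 and 9.08, a log2 fold change of 1.50 ± 0.29 (SE), adjusted p = 0.00102. Of the higher genes it alone kept its call without any single library, and the higher count was 1 without Azucena replicate 1 or Moddai Karuppan replicate 3 and 2 without Azucena replicate 2 or 3 or Moddai Karuppan replicate 4. HAK12 (log2 fold change 0.70, adjusted p = 0.0302) and the phosphate transporter PT6 (log2 fold change 2.49, adjusted p = 0.035) lost theirs without 6 and 5 of the 8 libraries in turn, up to an adjusted p of 0.0852 and 0.106. The fourth higher gene was SPX1, of the phosphate sensing proteins (log2 fold change 0.69, adjusted p = 0.0341, with the replicate number as a block 0.0527). No ammonium transporter and no nitrate transporter of the list was called.

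Of 47 metal acquisition genes 5 were higher and 5 lower (21.3% called, near the 20.0% of all genes), or 3 lower without Azucena replicate 1 or Moddai Karuppan replicate 3. Higher were NAS3, the divalent metal transporter NRAMP6 at 13.6 ± 2.94 against 5.74 ± 1.58 CPM (log2 fold change 1.25, adjusted p = 0.00339), the zinc transporters ZIP3 (log2 fold change 1.09, adjusted p = 0.00489) and ZIP4 (log2 fold change 1.14, adjusted p = 0.0068), and VIT1, a vacuolar iron transporter (log2 fold change 2.32, adjusted p = 0.0105), and the call of each was kept without any single library. MTP4 (LOC_Os03g12530), of the metal tolerance protein family, was the strongest of the lower genes, with 3.87, 6.21, 4.82 and 6.47 CPM against 26.2, 22.2, 19.9 and 20.0, a log2 fold change of −2.04 ± 0.26 (SE), adjusted p = 1.22e-05. NRAMP4 followed at 22.5 ± 6.28 against 52.1 ± 8.48 CPM (log2 fold change −1.21, adjusted p = 0.000381), then YSL6, of the family that carries metal-nicotianamine complexes, at 23.7 ± 8.05 against 49.0 ± 4.79 CPM (log2 fold change −1.05, adjusted p = 0.0141). ZIP2 and MTP1 were lower too (adjusted p = 0.0211 and 0.0332), but not without some single libraries (up to 0.0651 and 0.0956). Genes for iron uptake by phytosiderophores did not pass, among them NAS1 (log2 fold change −0.66, adjusted p = 0.646), NAS2 (log2 fold change −0.21, adjusted p = 0.895), NAAT1 (log2 fold change −0.19, adjusted p = 0.884) and YSL15 (log2 fold change 0.07, adjusted p = 0.973). NAS1 and NAS2 are neighbouring close copies, so their values are uncertain.

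Of 12 ABC transporters 2 were higher (16.7% called, below the 20.0% of all genes). ABCG53 stood at 17.6 ± 6.49 against 5.16 ± 1.35 CPM (log2 fold change 1.77, adjusted p = 0.00338). ABCG43 (log2 fold change 1.11, adjusted p = 0.0222) was highest in Azucena replicate 1 at 24.2 CPM. Its call was lost without that library (adjusted p = 0.147) or without Moddai Karuppan replicate 1, 2 or 3. The Casparian strip family, relatives of the proteins that place the diffusion barrier of the endodermis, had 1 member higher and 2 lower of 23. That is 13% called, below the 20.0% of all genes. CASPL2C1 was lower at 4.34 ± 1.85 against 12.2 ± 3.07 CPM (log2 fold change −1.49, adjusted p = 0.00297), and CASPL1D1 higher at 1.69 ± 1.18 against 0.162 ± 0.138 CPM (log2 fold change 3.40, adjusted p = 0.00673). CASPL5B1 was lower (log2 fold change −1.01, adjusted p = 0.0154) but not without Azucena replicate 1 or 3 or Moddai Karuppan replicate 1 (up to 0.0585). CASP1 itself measured 38.4 ± 27.6 against 10.9 ± 5.23 CPM and did not pass (adjusted p = 0.0519). Of 10 root development genes 2 were higher (20% called, the same share as all genes), LOC_Os09g26840 and SCR2, a SCARECROW factor of endodermis formation. LOC_Os09g26840 stood at 1.84 ± 1.21 against 0.453 ± 0.155 CPM (log2 fold change 2.02, adjusted p = 0.0172) and SCR2 at 3.34 ± 1.40 against 1.57 ± 0.121 CPM (log2 fold change 1.09, adjusted p = 0.0223). Without Azucena replicate 3 neither passed (adjusted p = 0.079 and 0.0864), nor without Moddai Karuppan replicate 1, and SCR2 also not without Azucena replicate 4 or Moddai Karuppan replicate 2 or 3. SCR2 has a close copy, SCR1, which did not pass (log2 fold change 0.29, adjusted p = 0.505). SCR2 was also the single called gene of the 8 root markers, whose median log2 fold change was 0.83. Their part in the other results was not tested.

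Of 38 drought and abscisic acid genes 1 was higher and 8 were lower in Azucena, with a median log2 fold change of −0.42. salT and BADH2, described above, were the 2 lower genes that kept their calls without any single library. SAPK4, a kinase activated by salt stress, stood at 81.0 ± 17.4 against 126 ± 21.4 CPM (log2 fold change −0.64, adjusted p = 0.0163), and ZEP, zeaxanthin epoxidase of abscisic acid synthesis, at 13.7 ± 1.92 against 22.4 ± 0.581 CPM (log2 fold change −0.71, adjusted p = 0.0187). SAPK4 was lost without Azucena replicate 3 or Moddai Karuppan replicate 3 (up to 0.0634) and ZEP without Azucena replicate 2 or 4 (up to 0.0541). The factors ABF2 and TRAB1 and the dehydrins RAB21 and RAB16D completed the 8, with adjusted p-values of 0.0458, 0.046, 0.0257 and 0.0404. Without Azucena replicate 2 the list stood at 3 higher and 3 lower. The lower count was 4 without Moddai Karuppan replicate 4 and 5 without Azucena replicate 1 or 4 or Moddai Karuppan replicate 1. The higher count was 2 without Azucena replicate 1 and 0 without Azucena replicate 3 or Moddai Karuppan replicate 1 or 3. With the replicate number as a block 2 were higher and 9 lower.

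Of 17 low oxygen genes 3 were higher (17.6% called, below the 20.0% of all genes). All of them were sucrose synthases, which feed sucrose into glycolysis and wall synthesis. Sus2 (LOC_Os06g09450) measured 417, 420.0, 377 and 385 CPM against 235, 270.2, 257 and 271, a log2 fold change of 0.63 ± 0.16 (SE), adjusted p = 0.00917. Every Azucena library exceeded every Moddai Karuppan library. SUS5 and SUS7, close copies of each other, were higher (1.23 and 1.14, adjusted p = 0.013 and 0.0193) but not without Azucena replicate 2 (0.0584 and 0.0723), and SUS7 also not without Moddai Karuppan replicate 1, 2 or 4. The fermentation genes ADH1 and PDC1 did not pass (−0.05 and −1.12, adjusted p = 0.919 and 0.185).

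Oxidative stress genes were called in 9 of 29 cases, 4 higher and 5 lower, the lower count being 2 without Azucena replicate 3 or Moddai Karuppan replicate 1 and 3 without Azucena replicate 1 or Moddai Karuppan replicate 3 or 4. The higher genes included GER3 and GER4, which are counted again in the germin-like and BURP list. RMSOD1, a superoxide dismutase, was higher, at 102 ± 13.4 against 47.6 ± 21.9 CPM (log2 fold change 1.10, adjusted p = 0.00362), and sodCp, a copper-zinc enzyme, lower, at 50.5 ± 8.67 against 107 ± 27.3 CPM (log2 fold change −1.09, adjusted p = 0.00123). CCS1 (LOC_Os03g55970), which entered the list by its name alone, measured 14.6, 15.7, 7.40 and 11.0 CPM against 2.39, 2.13, 1.51 and 2.00. Its log2 fold change was 2.60 ± 0.33 (SE), adjusted p = 1.44e-05. CAT-B (LOC_Os06g51150), a catalase, measured 213, 254, 236 and 227 CPM against 425, 377, 400.2 and 362, a log2 fold change of −0.75 ± 0.15 (SE), adjusted p = 0.00164. The libraries of CAT-B varied little within each cultivar and did not overlap.

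Germin-like and BURP genes had 3 of 9 members higher and 1 lower, BURP2, GER3 and BURP16 being described above. GER4 measured 92.3, 87.9, 168 and 113 CPM against 27.6, 96.2, 24.1 and 24.2, a log2 fold change of 1.42 ± 0.44 (SE), adjusted p = 0.0275. Moddai Karuppan replicate 2 alone reached the Azucena range, and without it the log2 value was 2.18, while without Azucena replicate 3 or Moddai Karuppan replicate 1, 3 or 4 the call was lost (up to 0.0922). Of 8 autophagy genes APG4A was higher and 3 were lower. APG12, a ubiquitin-like protein of autophagosome formation, measured 8.79, 8.93, 6.77 and 7.37 CPM against 19.3, 14.6, 12.9 and 14.9, a log2 fold change of −0.95 ± 0.16 (SE), adjusted p = 0.000294. APG4B, the second protease of the APG4A kind, moved the opposite way (log2 fold change −0.64, adjusted p = 0.0152), although not without Moddai Karuppan replicate 3 (0.0692). APG8C was lower (log2 fold change −0.53, adjusted p = 0.0165) but not without Azucena replicate 4 or Moddai Karuppan replicate 1 (up to 0.0625). Among 8 genes of diterpenoid phytoalexins 2 were higher and 1 lower. KS2, a kaurene synthase-like enzyme, was lower at 0.169 ± 0.0760 against 1.86 ± 0.634 CPM (log2 fold change −3.42, adjusted p = 0.000386). CYP701A19 was higher (log2 fold change 1.65, adjusted p = 0.0128, without Azucena replicate 4 0.0592), as was CPS4, which makes the precursor of momilactones (log2 fold change 3.94, adjusted p = 0.0202), lost without Azucena replicate 1 (0.0912, log2 2.84) or Moddai Karuppan replicate 1, 2 or 4.

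Families that share a name prefix and hold at least 10 measured genes were counted too, and a few whose calls leaned to one direction are given. These counts were not repeated without single libraries. No gene of the CIPK family, kinases of calcium signalling, was higher and 6 of 26 were lower in Azucena. No calmodulin-like gene (CML) was higher and 4 of 21 were lower, and of 22 beta-glucosidases (BGLU) 0 were higher and 5 lower. The shares called in CIPK, CML and BGLU were 23.1%, 19% and 22.7%, near the 20.0% of all genes tested. Cytochrome P450 genes with the prefix CYP had 5 higher and 1 lower of 19 (31.6% called).

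Moddai Karuppan differed from the mean of Niyan Wee and Sarali in few genes, which does not require a difference from each of them. The contrast of Moddai Karuppan with the mean of those cultivars asks whether the distance between Azucena and Moddai Karuppan differs from the distance between Azucena and the others, since Azucena cancels out. It called 432 genes (2.04%), 286 higher in Moddai Karuppan (1.35%) and 146 lower (0.688%), with 290 without Moddai Karuppan replicate 1. Of the named genes 23 were called, and 16 were also called against Azucena with the same sign for Moddai Karuppan. The test against Azucena and this contrast share the Moddai Karuppan libraries, so the second is no independent support of the first.

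The gene salT was the clearest. Its level was 1148 ± 379 CPM in Moddai Karuppan, 90.7 ± 63.7 in Azucena, 17.2 ± 3.25 in Sarali, 12.2 ± 6.46 in Niyan Wee and 14.3 ± 2.91 in Bala (mean ± SD, n = 4 each). The lowest Moddai Karuppan library, at 748 CPM, was above every other library of the 5 cultivars. The difference from the mean of Niyan Wee and Sarali was 6.31 ± 0.50 on the log2 scale (SE, adjusted p = 8.82e-08). Sbe1, starch branching enzyme I, stood at 72.4 ± 15.0 CPM in Moddai Karuppan, 38.0 ± 2.40 in Sarali, 33.2 ± 5.91 in Niyan Wee and 33.7 ± 3.69 in Azucena. Against Azucena its log2 fold change was −1.10 ± 0.16 (adjusted p = 5.39e-05), and the difference from Niyan Wee and Sarali was 1.02 (adjusted p = 5.69e-05).

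In 4 further genes Moddai Karuppan was the low cultivar. PAE1 stood at 39.4 ± 8.84 CPM there and between 81.1 (Niyan Wee) and 86.7 CPM (Sarali) in the other 4 cultivars, −1.09 from Niyan Wee and Sarali (adjusted p = 0.000468). AO-1 stood at 1.92 ± 1.01 CPM, against 6.20 ± 1.46 in Sarali, 10.1 ± 2.29 in Niyan Wee and 5.86 ± 2.17 in Azucena (−2.03, adjusted p = 0.000446). SPO11-4, of the SPO11 and topoisomerase VI family, stood at 9.40 ± 2.06 CPM, against 17.1 ± 1.94 in Sarali, 25.8 ± 9.13 in Niyan Wee and 19.8 ± 3.11 in Azucena (−1.16, adjusted p = 0.00117). HAK18 stood at 7.89 ± 2.65 CPM, against 21.9 ± 2.43 in Sarali, 26.7 ± 9.64 in Niyan Wee and 22.4 ± 7.42 in Azucena (−1.61, adjusted p = 0.0012). These 6 calls were made also when any single library of the 3 cultivars was left out. Within the P2 libraries alone salT passed and the others did not (adjusted p = 0.124 for PAE1, 0.0973 for Sbe1, 0.0937 for AO-1, 0.184 for SPO11-4 and 0.115 for HAK18).

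**Figure D5:**
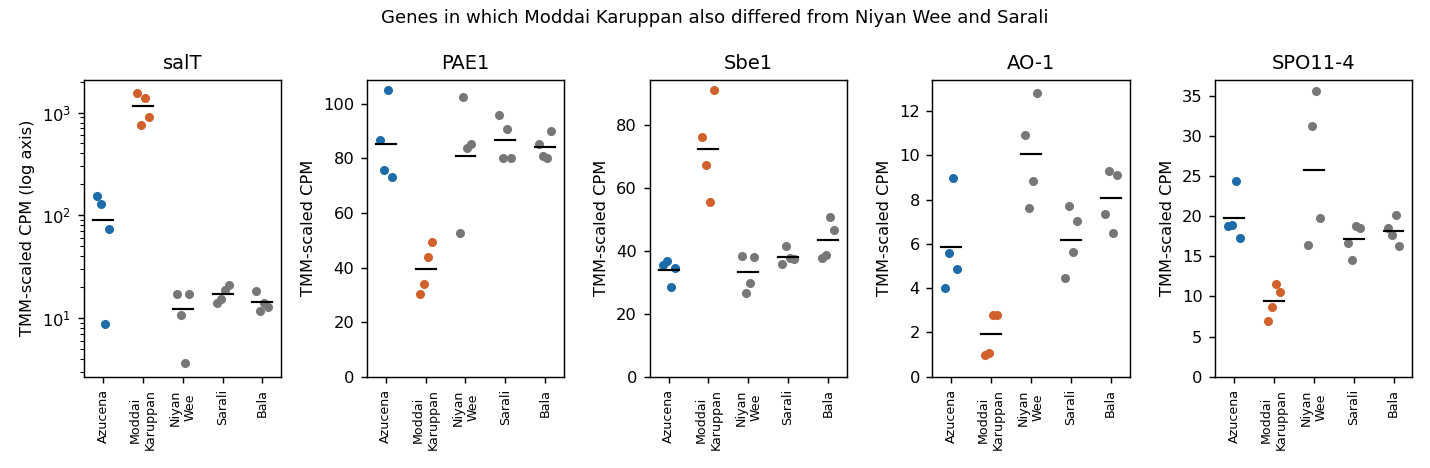
TMM-scaled CPM of 5 genes in each of the 20 libraries (vertical; the salT panel has a log axis, the others start at 0), Azucena in blue, Moddai Karuppan in orange and the other cultivars in grey, with horizontal lines at the cultivar means. Moddai Karuppan is the highest cultivar in salT and Sbe1 and the lowest in PAE1, AO-1 and SPO11-4.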

How the data were processed

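Root RNA of 4 libraries per cultivar was sequenced from TruSeq stranded total RNA libraries with Ribo-Zero, per the labels' protocols, although the labels name the molecule polyA RNA. Per the submitters' processing notes HISAT2, edgeR 3.36.0 and build IRGSP-1.0 were used, while counting tool, annotation and strand setting were not given in the sources used here. Values in the authors' deposited table were expected counts, 7.58% of them not whole, and were rounded. All 21237 gene rows reached 1 CPM in 3 or more libraries. Another 2 rows named no gene and were left out. The unit had been planned as whole counts, and the test was kept.

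All 20 libraries were fitted with edgeR 4.0.16 (R 4.3.3, TMM scaling, filterByExpr, quasi-likelihood test, Benjamini-Hochberg adjustment over 21225 genes, threshold 0.05), after a check on simulated counts. SE is the log2 fold change divided by the square root of the F value. Depth limits low genes, and a value of 0 was set against a floor of 3 counts. Locus numbers are those of the files, names were matched for 20839 of 21237 genes through the RefSeq table of assembly ASM3414082v1, and 2361 had a name. Members, lists and tests were chosen with earlier results of these data known. Named are non-overlapping called genes by fold (8 each way, at least 5 CPM in the higher cultivar) and by p (5 each way, at least 10 CPM in both), up to 4 members per list, all aquaporins, 2 unnamed loci each way and 5 genes of the Niyan Wee and Sarali contrast, all by rule, and further list members chosen after their values were seen. Same-numbered replicates of the pair had correlations of deviations of 0.0639, −0.189, −0.209 and 0.200, and since the labels call the numbers "batch rep", a fit with the number as a block is given where it changes a call. Alternatives were DESeq2 1.42.0, RLE scaling, other filters, the 8 libraries alone, covariates, a replicate block and leaving out each library.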

Additional observations from a re-analysis of the deposited data

Results flagged for a closer look

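In 13 of 232 groups of 4 libraries of named genes, the highest or lowest library lay far from the other 3 by Dixon's test, which chance gives in about 1 of 20 groups. Azucena replicate 3 was the far library for MADS56 (3.70 CPM), BADH2 (28.3 CPM), CSLE2 (16.8 CPM) and ORR5 (0.331 CPM). Azucena replicate 1 was far for XB3 (47.3 CPM), and Azucena replicate 2 for PIP2-2 (53.1 CPM) and SUS7 (13.4 CPM). Moddai Karuppan replicate 2 was far for PIP2-3 (93.0 CPM), CSLE2 (17.5 CPM) and GER4 (96.2 CPM), replicate 1 for SIP1-1 (59.7 CPM) and OSH71 (75.2 CPM), and replicate 4 for RAB21 (24.7 CPM).

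The distance from Azucena differed between Moddai Karuppan and the mean of Niyan Wee and Sarali in 12 of the genes described. The log2 difference of Moddai Karuppan was 6.31 for salT, 1.02 for Sbe1, −1.09 for PAE1, −2.03 for AO-1, −1.16 for SPO11-4 and −1.61 for HAK18, as given above. In another 6 genes the call was lost when some single libraries were left out. These were GER3 (2.90, adjusted p = 0.0258, highest 0.253 without Moddai Karuppan replicate 1, with the replicate number as a block 0.0729), LOC_Os11g28670 (7.15 as fitted against groups close to 0, which is no measured size, adjusted p = 0.0386, highest 0.133 without the same library) and MTP4 (0.87, adjusted p = 0.0304, highest 0.163). The others were H2B.11 (−0.86, adjusted p = 0.0157, highest 0.102), APG12 (0.57, adjusted p = 0.0307, highest 0.247) and Sus2 (−0.56, adjusted p = 0.0485, highest 0.216, with the block 0.0740), each highest without Moddai Karuppan replicate 1, as was MTP4.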

How the results depend on the processing

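Of 4251 called genes the total was 2101 (1299 higher, 802 lower) within the P1 libraries, 1524 (902 and 622) within P2, and 2734 (1135 lower) when at least a 2-fold difference was also asked for. Fewer samples entered the first pair. It was 5166 with DESeq2 and between 3837 and 4373 under the remaining alternatives. Leaving out 1 library gave 3068 to 3963 genes, 1658 to 2124 higher and 1410 to 1839 lower. The contrast with Niyan Wee and Sarali called 671 genes with DESeq2 (292 lower) and 167 in P2 (129 higher, 38 lower), with 186 higher in P1, and without 1 library 290 to 424 (210 to 288 higher, 80 to 150 lower, the count of lower genes being 80 without Moddai Karuppan replicate 1 and 95 without replicate 2). Genes near absent numbered 268 in Moddai Karuppan and 17 in Azucena when a mean of 2 CPM sufficed, and 132 to 144 and 5 to 35 without 1 library. The ribosomal RNA difference was 3.48 to 10.2 percentage points without 1 library, and with same-numbered differences as a block its exact sign-flip p was 0.5, the smallest possible being 0.125. With the replicate number as a block 4293 genes were called, and 397 in the contrast. Among the genes named by rule that block ended the call of WOX6 (adjusted p = 0.0525) and no other against Azucena, and of GER3 (0.0729) and Sus2 (0.0740) in the contrast; among further list members it ended those of SPX1 (0.0527), Hox9 (0.0619), RBOHB (0.0629) and IAA16 (0.0696).

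Of 97 called genes named by rule 72 were called whichever library was left out, 56 lost the call in P2 and 45 in P1, and no called gene changed direction. Direction changed for aquaporins that were not called, with a log2 fold change of −0.0224 for PIP1-1, 0.58 for PIP1-3, −0.239 for SIP2-1 and 0.159 for NIP3-1 in P2, and 0.168 for NIP2-2 in P1. When single libraries were left out it ranged from −0.077 to 0.254 for SIP2-1, −0.336 to 0.161 for PIP2-4, −0.400 to 0.0255 for PIP2-1 and −0.194 to 0.0912 for NIP3-1. Why these values moved was not tested. In the fit on the 8 libraries alone the lists that moved by over 1.5 times were aquaporins (3 lower against 1), nutrient uptake (5 lower against 2), heat shock (2 higher against 1, 3 lower against 5), cytokinin and gibberellin (5 lower against 2), RNA silencing (5 higher against 3), Casparian strip (2 higher against 1, 4 lower against 2) and ribosomal proteins (6 higher against 0). The same fit gave MADS-box 3 higher against 1, homeobox 2 lower against 4, ABC transporters and diterpenoid genes 1 higher against 2 each, and 1 lower against 0 in expansins and in low oxygen genes. With DESeq2 aquaporins had 2 higher and 2 lower (1 and 1), auxin 10 and 8 (6 and 4), nutrient uptake 4 lower (2), ribosomal proteins and MADS-box 3 higher each (0 and 1), Casparian strip and drought genes 2 higher each (1), and low oxygen genes 1 lower (0). Depth outside ribosomal RNA lay between 10353221 and 21258155 counts per library, which limits genes of low level.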
